A study of Homo sapiens with 2 samples.

Results

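The cytosolic ribosomal protein genes encode the proteins of the small (RPS) and large (RPL) subunits of the ribosome that translates most cellular mRNA. They were taken as the protein-coding genes of chromosomes 1 to 22 and X whose symbol follows the RPS or RPL numbering, together with RPSA, RPLP0, RPLP1 and RPLP2. This gave 81 of 19970 protein-coding genes in GENCODE release 44, of which 32 belong to the small and 49 to the large subunit. The rule used names only and no measured value.

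To locate the transcription co-regulator LDB1 on chromatin, the study performed CUT&Tag, in which an antibody directs a transposase that cuts and tags nearby DNA, on the human cell line NB4, which derives from acute promyelocytic leukemia. The series holds 1 library made with an LDB1 antibody from cells labelled LDB1 overexpression and 1 made with IgG from cells labelled untreated. The study's methods describe CUT&Tag on NB4 cells and do not mention overexpression for it, so whether the peaks reflect LDB1 at its native level is not known here. Antibody and treatment therefore cannot be told apart. The data are the 11046 LDB1 peaks that the authors deposited, which give the place and length of every region without a height, q-value or summit, so the read depth is unknown. Without replicates no test between groups was made, and all intervals given (95%) reflect counting error alone. Intervals of single shares are Wilson intervals, those of weighted shares follow from the counts in each class, and that of a ratio carries the interval of its numerator. For a count of 0, the limit given is the share that 3 counts would make.

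Ribosomal protein genes are transcribed at a high and coordinated rate in growing cells. Their promoters typically lack a strong TATA box, and transcription begins within a run of pyrimidines, so that the mRNAs start with the terminal oligopyrimidine (TOP) sequence through which their translation is controlled. LDB1 does not bind DNA itself. It acts in complexes with the scaffold protein LMO2 and factors such as TAL1 and GATA proteins. In red cell precursors these factors occupy a composite element made of CTG, a short spacer and a GATA site. Loss of 1 copy of several ribosomal protein genes causes Diamond-Blackfan anemia, a failure of red cell production.

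The sequences below carry the comparison between the start sites of these genes and the few LDB1 peaks near them. The first set shows 30 bases around the RefSeq start (GRCh38.p14) of 4 genes with a peak in the gene or within 3 kb. It holds 20 bases before the start and 10 from the start on, read 5′ to 3′ on the strand of the gene. The nearest peak edge lay 511 bp (RPLP1) to 20650 bp (RPS3) from the canonical start of these genes. Capitals mark runs of at least 7 pyrimidines. The RefSeq start of RPL6, which also has a peak, holds no such run and is not shown. RPL3L had no entry in the promoter sequences used.

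RPLP1, chr15:69452798-69452827, plus strand: gctgcgtataggcgcgagagCCCCTTTCCT

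RPS14, chr5:150449730-150449759, minus strand: tcgctccgCCCCCTCCCaCTCTCTCTTTCC

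RPS3, chr11:75399498-75399527, plus strand: cttccgcccgcgagccaCTTCCTTTCCTTT

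RPS9, chr19:54200838-54200867, plus strand: cagccgtggcgcttccgcgCCTCTTTCTCa

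The second set shows the LDB1 peak nearest to a start site of a ribosomal protein gene, at RPLP1, in full, and the central 200 bases of the peak in RPL3L, both on the plus strand of hg38. Capitals mark the GATA motif, WGATAR (with A or T at W and A or G at R), or its reverse complement.

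RPLP1 peak, chr15:69452055-69452307, plus strand: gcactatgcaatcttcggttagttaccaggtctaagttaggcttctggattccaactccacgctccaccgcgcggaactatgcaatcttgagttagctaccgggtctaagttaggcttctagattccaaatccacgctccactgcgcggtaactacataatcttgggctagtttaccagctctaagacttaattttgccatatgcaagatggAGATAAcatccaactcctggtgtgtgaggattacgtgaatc

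RPL3L peak, chr16:1946039-1946238, plus strand: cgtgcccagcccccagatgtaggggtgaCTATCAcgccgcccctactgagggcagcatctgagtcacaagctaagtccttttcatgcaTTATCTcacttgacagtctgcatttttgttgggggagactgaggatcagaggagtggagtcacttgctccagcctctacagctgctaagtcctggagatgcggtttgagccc

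The third set shows, in windows of 30 bases, each composite element (CTG, 7 or 8 bases of any kind, then WGATAR) found in a peak at a ribosomal protein gene, on the strand that reads CTG first. Capitals mark both parts of the element.

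RPL3L, chr16:1946119-1946148, minus strand: tgcagaCTGtcaagtgAGATAAtgcatgaa

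RPS3, chr11:75420479-75420508, plus strand: agagagCTGgcttcggAGATAGctgggccc

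RPS3, chr11:75421129-75421158, minus strand: gaccatCTGgacacagcTGATAAtggcagt

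RPS3, chr11:75422823-75422852, plus strand: ccctgcCTGgccaggccAGATAAtagaacc

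To ask how often LDB1 peaks lie at ribosomal protein genes, peaks were sought in each gene and in the 3 kb before and after it. Results showed a peak at 6 of the 81 genes (7.41%, interval 3.44 to 15.2%), compared with 19.8% of all protein-coding genes. The 6 genes were RPS3, RPS9 and RPS14 of the small subunit and RPL3L, RPL6 and RPLP1 of the large subunit. Inside the gene body alone, 4 of 81 genes (4.94%) and 16.6% of all protein-coding genes had a peak.

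Ribosomal protein genes are short, with a median length of 5548 bp (quartiles 3710 and 11296 bp) against 27476 bp for all protein-coding genes, and longer genes more often hold a peak. The share of all other protein-coding genes with a peak was therefore averaged over 20 length classes in the proportions of the ribosomal protein genes. This gave 12.5% (11.7 to 13.2%), and the ratio of the observed share to it was 0.594. The interval of the ratio, 0.276 to 1.22, included 1, so a lower share than that of other genes of like length was not resolved with 81 genes. Among genes of at most 5548 bp, 1 of 42 ribosomal protein genes had a peak, compared with 8.23% of 3012 other genes. Above that length the counts were 5 of 39 and 21.9% of 16877. In the upper range the other genes reach far greater lengths than the ribosomal protein genes, so these values are not matched on length and the weighted share above is the fairer reference.

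**Figure D1:**
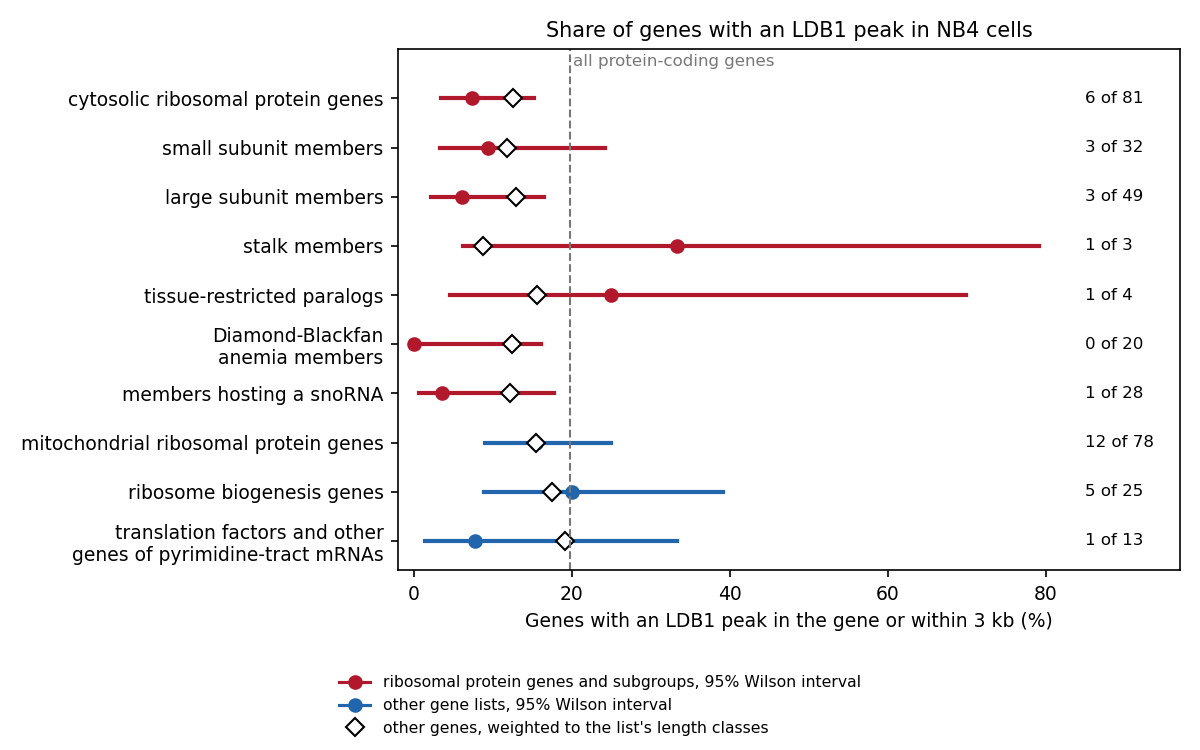
Share of genes with an LDB1 peak in the gene or within 3 kb, in percent, for the cytosolic ribosomal protein genes and 6 of their subgroups (red) and 3 other gene lists (blue). Bars are 95% Wilson intervals, open diamonds give the share of other protein-coding genes weighted to the length classes of each list, and the dashed line marks all protein-coding genes (19.8%). The red points lie to the left of their diamonds, except those of the stalk genes (1 of 3) and the tissue-restricted paralogs (1 of 4), which lie to the right, and each diamond lies within its bar (for the mitochondrial genes it covers the point).

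The count was then restricted to the start sites, whose windows lie within those used above, so that shares can only be equal or lower. A peak within 3 kb of any transcription start site (TSS) annotated in GENCODE was found for 1 ribosomal protein gene, RPLP1 (1.23%, interval 0.218 to 6.67%). The share of all protein-coding genes was 10.8%. The RefSeq start of RPL6 used below is not a GENCODE start and lies within 3 kb of the RPL6 peak, so RPL6 is not counted. Weighting the other genes to the GC content of the promoters of the ribosomal protein genes gave 10% (9.45 to 10.6%), and weighting them to gene length gave 8.81% (8.17 to 9.44%). Both values lay above the interval of the ribosomal protein genes. With the canonical TSS alone the share of the ribosomal protein genes was again 1.23% (0.218 to 6.67%), but that of all protein-coding genes was 6.52%, inside this interval, so the shortfall was not resolved there. No TSS of a ribosomal protein gene lay inside a peak (0 of 81), which by counting error allows a share of up to 3.70%, while 731 protein-coding genes (3.66%) had such a TSS. At this number of genes the absence of a peak on the TSS itself is thus not distinguishable from the share of all genes.

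Features of the sequence around the start sites that bear on alignment were compared as well. Within 150 bp of the canonical TSS, 31-base words starting every 10 bases were checked for copies in hg38. At least 90% of these words were found once for 74 of 81 ribosomal protein genes (91.4%) and for 91.1% of all protein-coding genes. In these 74 genes the share with a peak within 3 kb of a TSS was 1.35%, and in all protein-coding genes of the same kind 11.2%. Median GC content around the TSS was 61.5% for the ribosomal protein genes and 65.8% for all protein-coding genes.

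The low count near the TSS was not matched by a long distance to the nearest peak. The median distance from the canonical TSS, that of the transcript marked as canonical in the annotation, to the nearest peak was 47073 bp (quartiles 23062 and 109091 bp) for the ribosomal protein genes and 89477 bp (26592 and 259024 bp) for all protein-coding genes. A peak lay within 100 kb of the canonical TSS of 58 of the 81 ribosomal protein genes (71.6%, interval 61.0 to 80.3%), against 52.8% of all genes. Within 10 kb the shares were 11.1% and 13.3%, and within 3 kb they were 1.23% and 6.52%, both within the counting intervals. The ribosomal protein genes thus lay above all genes at 100 kb, with no difference resolved at 10 or 3 kb. Among genes with a peak within 100 kb, 1 of 58 ribosomal protein genes (1.72%, interval 0.305 to 9.14%) and 12.4% of 10538 protein-coding genes had it within 3 kb. The mitochondrial ribosomal protein genes gave a like value, 1 of 44 (2.27%, 0.402 to 11.8%). The share of all genes lay above both intervals, but only narrowly for the mitochondrial family. The mitochondrial interval overlaps that of all genes, so a difference was not shown for this family. All genes were not matched on length or GC content here. The measure counts only genes with a peak within 100 kb, which are themselves more frequent among the cytosolic family. Without this condition, neither family was told apart from all genes within 3 kb of the canonical TSS.

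**Figure D2:**
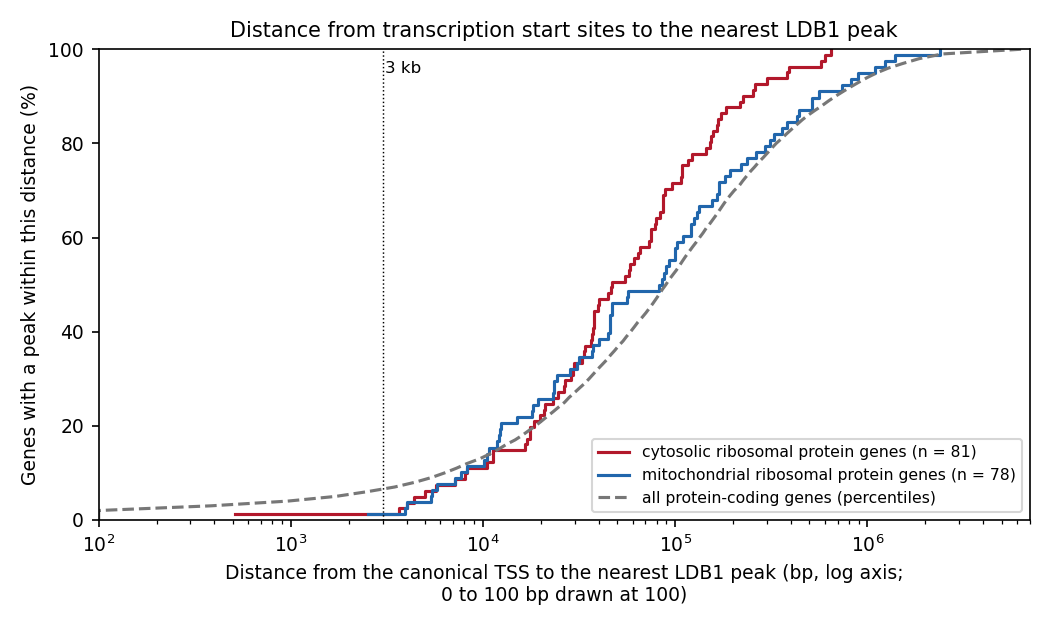
Percentage of genes (vertical axis) whose canonical TSS has an LDB1 peak within a given distance in bp (horizontal log axis), for 81 cytosolic ribosomal protein genes (red steps), 78 mitochondrial ribosomal protein genes (blue steps) and all protein-coding genes (dashed line). The red line stays at 1.23% up to 3 kb and reaches 71.6% at 100 kb, where all protein-coding genes reach 52.8%.

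The mitochondrial ribosomal protein genes, whose products form the separate ribosome of the mitochondrion, were set beside them. A peak lay in or within 3 kb of 12 of 78 genes (15.4%, interval 9.03 to 25%), and the share weighted to their length classes was also 15.4%. With any annotated TSS, 6 of them (7.69%, 3.57 to 15.8%) had a peak within 3 kb, but with the canonical TSS alone 1 did (1.28%, 0.227 to 6.91%). The intervals of both gene families overlapped in each of these counts, so a difference between them was not shown. Their distances differed by value, with a median of 83907 bp for the mitochondrial family.

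The small subunit held a peak at 3 of 32 genes (9.38%, interval 3.24 to 24.2%) and the large subunit at 3 of 49 (6.12%, 2.10 to 16.5%), and these intervals overlap. Of the 3 stalk genes, whose products form the flexible arm that recruits translation factors to the ribosome, RPLP1 had a peak (33.3%, 6.15 to 79.2%, with a length-weighted share of 8.73%), and RPLP0 and RPLP2 had none within 3 kb. Of the 4 tissue-restricted or alternative paralogs, RPL3L had one (25%, 4.56 to 69.9%, with a length-weighted share of 15.6%) and RPL10L, RPL39L and RPS27L had none. With so few genes in either group, their shares were not told apart from those of other genes.

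None of the 20 Diamond-Blackfan anemia genes had a peak (0 of 20, which allows a share of up to 15%), where other genes weighted to their lengths had 12.4%. Among them are RPS19, the gene most often mutated in the disease, RPL5 and RPL11, whose products bind the 5S rRNA and restrain MDM2, and RPS26. The distance from the canonical TSS to the nearest peak was 16472 bp for RPS19, 19734 bp for RPL5, 85928 bp for RPL11 and 85974 bp for RPS26. With 20 genes, a depletion relative to genes of like length was not detectable.

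Many ribosomal protein genes carry small nucleolar RNAs, which guide chemical modification of rRNA, in their introns. Of 28 such host genes, RPS3 had a peak (3.57%, interval 0.633 to 17.7%), where the length-weighted share was 12.2%. Its peaks did not lie in the part of the gene covered by the canonical transcript.

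Among other genes of the pathway, none of 7 ribosomal protein genes outside the naming rule had a peak, which allows a share of up to 42.9% where the length-weighted share was 11.7%. Among them was FAU, whose product is a fusion with a ubiquitin-like protein. Of 25 ribosome biogenesis genes, 5 had a peak (20%, interval 8.86 to 39.1%), where the length-weighted share was 17.5%. These were DKC1 and FBL, the catalytic proteins of the snoRNA-guided modification complexes, UBTF, a transcription factor of RNA polymerase I, RRP1B and HEATR3. Of 13 genes of translation factors and other proteins whose mRNAs also start with a pyrimidine run, 1 had a peak (7.69%, interval 1.37 to 33.3%), where the length-weighted share was 19.1%. This was HNRNPA1, which encodes an RNA-binding protein of splicing and no translation factor. An annotated start of HNRNPA1 other than the canonical one lay inside the peak. No canonical TSS in this list was nearer to a peak than 5098 bp. All 3 lists were within counting error of other genes of like length.

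The 9 peaks at the 6 genes were then placed on the gene models. Their median length was 456 bp, and that of all peaks was 451 bp.

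RPLP1 (ENSG00000137818.12, chromosome 15, plus strand) encodes an acidic protein of the stalk and spans 3392 bp. Its single peak, chr15:69452055-69452307 (253 bp), lay upstream of the gene. The edge of the peak was 511 bp and its midpoint 637 bp from the canonical TSS. The nearest annotated TSS, at 633 bp from the midpoint, was another start of RPLP1, and all 31-base words of the peak occur once in hg38. The peak held 1 GATA motif, no E-box (CAGNTG) and no composite element. In the sequence printed above, the longest stretch that occurs again within the peak was 18 bases, with its copies starting at bases 29 and 103. The peak was short for this list and longer than 8.56% of all peaks.

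RPL3L (ENSG00000140986.8, chromosome 16, minus strand) encodes a paralog that takes the place of RPL3 in ribosomes of heart and skeletal muscle. Its peak, chr16:1945870-1946409 (540 bp), had its midpoint in intron 7 of the canonical transcript, 8550 bp downstream of the TSS, and overlapped exon 8 by 61 bases. The nearest TSS to the midpoint was that of MSRB1, at 2940 bp. The peak held 3 GATA motifs and 5 E-boxes. Its composite element, with a spacer of 7 bases, lay 5 bp from the midpoint. Of the 9 peaks this was the only one inside a canonical transcript and the only one with a composite element in its central 200 bp.

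RPL6 (ENSG00000089009.16, chromosome 12, minus strand) encodes a core protein of the large subunit. Its peak, chr12:112413999-112414233 (235 bp), lay 4511 bp upstream of the canonical TSS by its midpoint and counted as inside the gene because 1 of 13 annotated transcripts extends over it. The nearest TSS in GENCODE was another start of RPL6, at 3746 bp. It was the only one of the 9 peaks with no GATA motif, and it held 1 E-box.

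RPS14 (ENSG00000164587.13, chromosome 5, minus strand) encodes a small-subunit protein whose loss of 1 copy underlies the anemia of the myelodysplastic syndrome with deletion of the long arm of chromosome 5. Its peak, chr5:150441422-150441707 (286 bp), began 928 bp beyond the end of the gene and 8032 bp from the TSS. Of its 31-base words, 53.9% occur once in hg38. The peak held 1 GATA motif and 2 E-boxes.

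RPS3 (ENSG00000149273.15, chromosome 11, plus strand) encodes a protein at the mRNA entry channel of the small subunit. The longer of its peaks, chr11:75420168-75421636 (1469 bp), began 13261 bp beyond the end of the canonical transcript and lay in 1 of 20 annotated transcripts. The other, chr11:75422513-75422931 (419 bp), lay 233 bp outside RPS3 altogether. It overlapped exon sequence of the neighbouring gene KLHL35, including an annotated untranslated segment. The nearest TSS to both was that of KLHL35, at 3995 and 2175 bp. These peaks held the remaining 3 composite elements, at 408 and 242 bp from the midpoint of the longer and 116 bp from that of the shorter peak.

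RPS9 (ENSG00000170889.14, chromosome 19, plus strand) encodes a small-subunit protein that binds early in subunit assembly. It had 3 peaks. The longest, chr19:54208011-54210588 (2578 bp), ranked 61 by length among all peaks, began 364 bp beyond the end of the canonical transcript and covered exon sequence of the unprocessed pseudogene ENSG00000224579, whose TSS was 119 bp from the midpoint. It was followed by chr19:54210839-54211576 (738 bp) and chr19:54214341-54214796 (456 bp). The last was nearest to the TSS of LILRB3, an inhibitory receptor of myeloid cells, at 3130 bp among protein-coding genes. Each lay in 1 of 13 annotated RPS9 transcripts and in no canonical exon or intron. Of the words of the last peak 5.87% occur once in hg38, and its central 31 bases have 1639 copies, whereas the longest peak had 97.7% of its words found once.

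**Figure D3:**
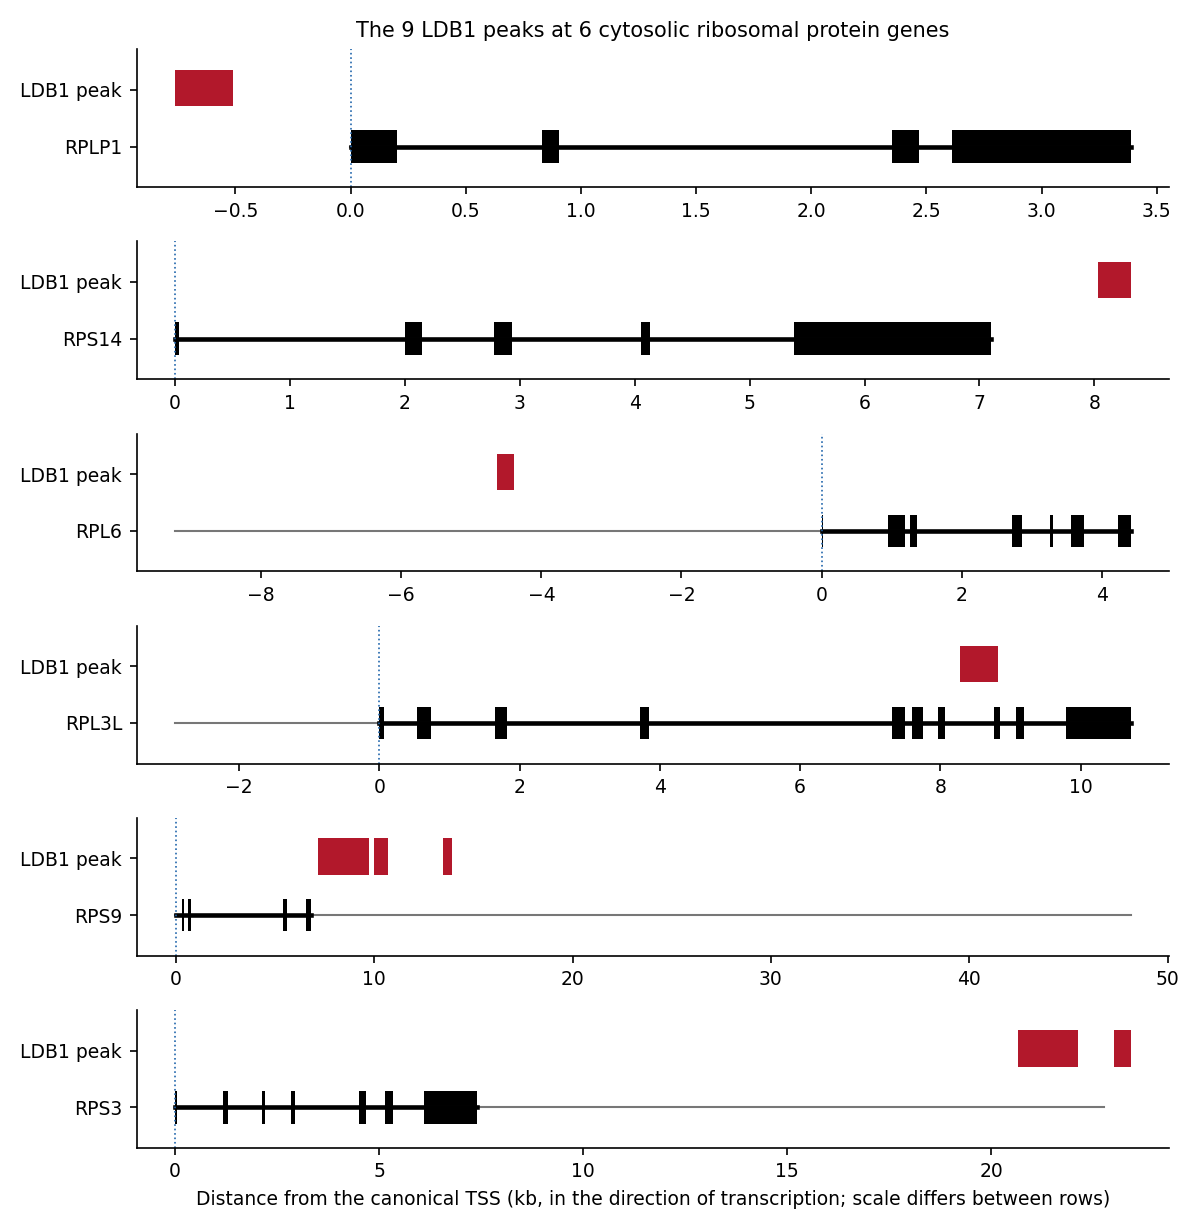
Maps of the 6 ribosomal protein genes with a peak, in kb from the canonical TSS (dotted line) in the direction of transcription, with a separate scale in each row. Black boxes are exons and the thick line the span of the canonical transcript, the thin grey line is the span of all annotated transcripts, and red boxes are the 9 LDB1 peaks. No red box covers the dotted line, and only that of RPL3L lies within a thick line.

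Since most of these peaks lay outside the canonical gene, the count was repeated with the canonical transcript as the gene, a choice made after seeing the data. With 3 kb on either side, RPL3L, RPLP1, RPS14 and RPS9 kept a peak (4 of 81 genes, 4.94%), compared with 17.8% of all protein-coding genes. Without the flanks only RPL3L did, compared with 14.3%.

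The motifs of the 9 peaks were counted in the central 200 bp and set beside all 11046 peaks. The GATA motif was found in 3 of 9 (33.3%, interval 12.1 to 64.6%) and in 47.1% of all peaks. The E-box was found in 6 of 9 and in 51.5%, the composite element in 1 of 9 and in 11.1%, and the KLF/SP1 motif (GGGYGG, with C or T at Y) in 5 of 9 and in 33.1%. RUNX (TGYGGT) was found in 2 of 9 and in 20.5%, and AP-1 (TGASTCA, with C or G at S) in 1 of 9 and in 9.48%. ETS (CCGGAAR), YY1 (GCCATNTT) and CEBP (TTGCNNAA) motifs were found in none, with 2.34%, 3.15% and 7.44% of all peaks. With 9 peaks, the values of all peaks lay inside the intervals for each of these motifs. Over their whole length, 8 of the 9 peaks held a GATA motif, as did 71.4% of all peaks.

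To describe the promoters that lacked a peak, RefSeq promoter sequences (GRCh38.p14, 250 bases before to 50 after the start) were searched for the same motifs on both strands. Sequences matched 64 of the 81 genes. Among those without an entry were RPL3L, RPL5 and RPL39L. For some genes, such as RPL6 and RPS29, the RefSeq start was not the canonical TSS of GENCODE. Not every sequence is thus the promoter of the canonical transcript. A run of at least 7 pyrimidines reaching within 5 bases of the start, as in the first set of sequences, was found in 49 of 64 (76.6%, interval 64.9 to 85.3%), compared with 15.6% of 15316 protein-coding genes. The ETS motif, bound by factors such as GABPA, was found in 32 of 64 (50%, 38.1 to 61.9%), compared with 18.4%. YY1 was found in 10 of 64 (15.6%), compared with 7.98%. All 3 were more frequent than in the promoters of all genes by more than the counting interval. The search for motifs did not use strand, except that the pyrimidine run was read on the strand of the gene.

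The GATA motif, the E-box and the composite element were not more frequent than in all promoters beyond counting error. The GATA motif was found in 10 of 64 promoters (15.6%, interval 8.71 to 26.4%), compared with 19.5%, and the E-box in 15 of 64 (23.4%, 14.7 to 35.1%), compared with 47.0%. The E-box share lay below that of all promoters by more than its interval, while the GATA share did not. The composite element was found in 1 promoter, that of RPL6, compared with 1.01%. RUNX was found in 26.6% of the promoters and in 18.7% of all, KLF/SP1 in 64.1% and 72.2%, CEBP in 12.5% and 8.38% and AP-1 in 1.56% and 3.68%, each within its counting interval.

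The element in the RPL6 promoter lay upstream of a RefSeq start that is 1837 bp from the canonical TSS of GENCODE, and no peak was nearer to it than 2368 bp. Capitals mark its CTG and its GATA part, with a spacer of 8 bases.

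RPL6 promoter, chr12:112411616-112411645, plus strand: aaattgCTGgcaatctcAGATAAtttcacc

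Across all 15316 promoters, 155 held the composite element and 26 of these (16.8%, interval 11.7 to 23.4%) overlapped a peak, compared with 2.57% (2.33 to 2.83%) of all promoters. Promoters with the ETS motif overlapped a peak in 2.41% and those with a pyrimidine run at the start in 2.48%, both close to all promoters. None of the 64 promoters of ribosomal protein genes overlapped a peak, including the 10 with a GATA motif. With 64 promoters, a share as low as that of all promoters could not be told from 0.

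**Figure D4:**
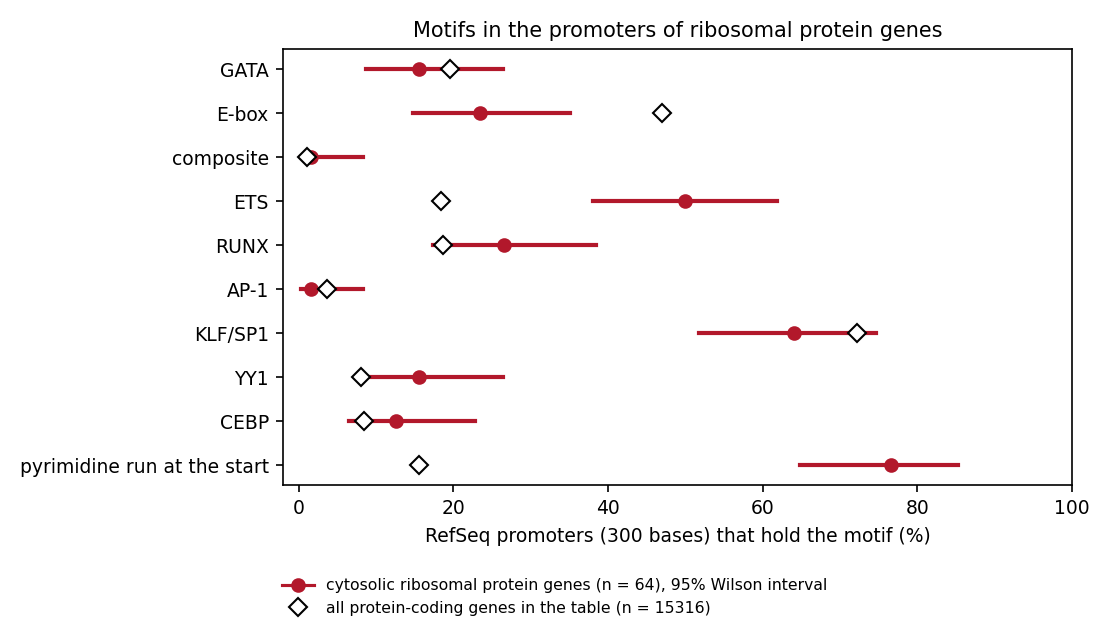
Percentage of RefSeq promoters of 300 bases that hold each motif, for 64 cytosolic ribosomal protein genes (red, with 95% Wilson intervals) and for all 15316 protein-coding genes in the table (open diamonds). The red points for ETS and for the pyrimidine run lie far to the right of the diamonds (50% against 18.4% and 76.6% against 15.6%), and that for the E-box lies to the left.

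The remaining 75 ribosomal protein genes had their nearest peak between 3533 and 647356 bp from the gene, with a median of 52585 bp. The 3 nearest to the limit of 3 kb were RPLP0 (3533 bp), RPL29 (4005 bp) and RPL18 (4968 bp), and the farthest was RPL36A. Inside the limit, the gene farthest from its peak was RPS14, at 928 bp, so no gene lay close to 3 kb on that side. For 22 genes the nearest peak was more than 100 kb away.

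A peak between 3 and 10 kb was found for 8 of these genes, and several of these peaks lay at other genes. The peak nearest to RPL18 had its midpoint 15 bp from the TSS of SPHK2, a sphingosine kinase, and that nearest to RPL41 was 63 bp from the TSS of ESYT1. The peaks near RPS23 lay within ATP6AP1L, and the peak near RPL5 lay within DIPK1A. RPLP0, the central protein of the stalk, had its peak (chr12:120204768-120205172, 405 bp) in PXN-AS1, with 1 composite element 92 bp from the midpoint. RPL29 had a peak (chr3:51999900-52000351, 452 bp) 4005 bp upstream of its own TSS, which was the nearest TSS, and this peak held 2 composite elements. The peak near RPL39L also had that gene as its nearest TSS, at 6105 bp from a start other than the canonical one.

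RPLP0, chr12:120205047-120205076, plus strand: tactgtCTGtttctgtAGATAAagttgtgg

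RPL29, chr3:52000060-52000089, plus strand: gtgagcCTGggtgacaAGATAGggctggat

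RPL29, chr3:51999985-52000014, minus strand: tatgctCTGctgagtccAGATAGtggctct

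The spacers of these elements were 7 bases at RPLP0 and 7 and 8 bases at RPL29. These elements lay in peaks 3533 bp from RPLP0 and 4005 bp from RPL29, beyond the 3 kb used for the count.

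Ribosomal protein genes have many processed copies in the genome, the processed pseudogenes, which are made from their mRNAs. Of 1585 annotated ribosomal protein pseudogenes, 8 overlapped a peak (0.505%, interval 0.256 to 0.993%), and 0.424% (0.306 to 0.586%) of 8498 other processed pseudogenes did. Within 3 kb the shares were 3.34% (2.57 to 4.35%) and 2.18% (1.89 to 2.51%). The overlap of both classes with peaks was the same within counting error, and the share within 3 kb was higher for the ribosomal protein pseudogenes. The classes were not matched on length or on position in the genome, and the cause of this difference was not tested.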

How the data were processed

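The authors made 1 LDB1 and 1 IgG CUT&Tag library from NB4 cells, aligned reads to hg38 with Bowtie2 2.4.4 and called peaks in paired-end mode under a q-value limit with MACS3 3.0 (versions per the submitters' processing notes). Whether IgG served as the control is not given in the sources used here. The values deposited by the authors were peak positions (start and end) and peak lengths in bp. Depth is unknown, and the IgG library was not analysed here.

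Genes and canonical transcripts were taken from GENCODE release 44. A gene was counted when a peak overlapped its span, over all transcripts, with 3 kb on either side. The ribosomal protein genes and all gene lists were chosen with earlier results of these data known. Each gene with a peak was named, and of the others the 3 nearest to one, with 4 more within 10 kb and examples from the disease list added after their values were seen. Some genes are counted but not reported by name here. Shares have Wilson 95% intervals. For a count of 0, the limit is 3 counts. References weight all other genes to 20 classes of length or GC content, and no lists were drawn. Motifs were consensus sequences on both strands. Copies of 31-base words were counted in hg38. Of 15316 RefSeq promoter sequences, 15315 equalled hg38 at their coordinates. Counting was tested on simulated data, where 2000 of 2000 windows were recovered. Alternatives were other flanks, longer peaks, peaks found once, other classes and windows, and, added after seeing the data, canonical transcripts and other references. Python 3.11.15, numpy 2.4.6 and pandas 2.3.3 were used.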

Additional observations from a re-analysis of the deposited data

How the results depend on the processing

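No paired analysis was possible because neither antibody was used in a repeat library. Of 60 alternative values for 10 results, 46 stayed within the counting interval (counts of peaks within 1.5 times), 14 moved and 0 reversed. The ratio of the share of ribosomal protein genes to the length-weighted share stayed between 0.465 and 0.879, and its interval included 1 in each alternative. The length-weighted share became 7.84% in the gene body, 9.74% with 1 kb and 19.7% with 10 kb on either side, 7.96% with the longer peaks (at or above the median length) and 10.4% with canonical transcripts. The ribosomal protein share was 17.3% with 10 kb. With the longer peaks, the mitochondrial share was 8.97%, the ribosomal protein share near a TSS 0% and the number of peaks 5, and with canonical transcripts it was 4. The GATA share of the 9 peaks was 11.1% in 100 bp and 88.9% over the whole peak. The share of all genes with a peak near a TSS was 10% weighted to promoter GC content and 8.81% weighted to length. Wider windows and fewer peaks move these values by construction, and the cause of any other shift was not tested. The canonical span and these TSS references were chosen after seeing the data. With 81 genes and unknown depth, weak signal below the authors' limit cannot be judged.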
